A study of Mus musculus with 20 samples.

Results

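Type I interferon response genes are the genes that cells switch on after interferon-alpha or interferon-beta binds its receptor, and 35 of them were followed here in mouse abdominal skin. The members were the receptor, the transcription factors that relay its signal, nucleic acid sensors, regulators, antiviral effectors and chemokines. They were found by gene symbol among the probe sets of an Affymetrix whole-transcript array, keeping probe sets with 1 symbol and, per gene, the probe set with the highest mean over the 20 arrays. In this way 33 of the 35 members were measured, out of 22180 genes in all. Ifi44 was not analysed here, and Oas1a was read only by a probe set that also reads Oas1g, so it was not analysed either.

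The study asked how skin responds to imiquimod, a Toll-like receptor 7 agonist used to induce psoriasis-like inflammation, when keratinocytes lack Zfp36, which encodes an RNA-binding protein (tristetraprolin) that speeds the decay of mRNAs with AU-rich elements. Control mice were zfp36 fl/fl and knockout mice zfp36 fl/fl K14 cre. All 20 mice thus carried the floxed alleles, and the controls were littermates without the recombinase. Each genotype was given imiquimod on the skin on 5 consecutive days or was mock-treated, with 5 animals in each of the 4 groups, and skin was taken 4 h after the last application. The K14 promoter drives Cre in keratinocytes, so that other cells of the skin keep the gene. The labels give neither the age nor the sex of the animals.

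Interferon-alpha and interferon-beta bind a receptor made of Ifnar1 and Ifnar2, whose kinases phosphorylate Stat2. Stat2 acts with Irf9 in a factor that binds the interferon-stimulated response element (ISRE) in promoters of the response genes. Plasmacytoid dendritic cells, which carry Toll-like receptor 7, are a known source of type I interferon, and imiquimod acts through that receptor. Values are given below as deposited, on a scale inferred to be log2, so that a difference of 1 is a 2-fold difference. A gene was called higher or lower when its Benjamini-Hochberg adjusted p, from limma over all 22180 genes, was under 0.05. Bulk skin was measured, in which fewer cells of a type and less RNA per cell cannot be told apart.

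The targeted gene was lower in the knockout skins. Zfp36 was 7.46 ± 0.22 in mock-treated controls and 5.43 ± 1.54 in mock-treated knockouts (mean ± SD, n = 5 each), 4.08-fold lower. Under imiquimod it was 8.0 ± 0.26 in controls and 6.40 ± 0.85 in knockouts, 3.03-fold lower. In neither treatment did a knockout array reach the lowest control array, and the exact two-sided permutation test gave p = 0.00794 each time, the smallest this design allows. The limma fit over all genes did not call it, with adjusted p = 0.999 in mock and 0.221 under imiquimod, and the knockout values spread from 3.47 to 7.12 in mock.

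Some arrays stood apart within their groups. The mean of 30 hair genes was 5.89 on control mock array 5 and 9.25 to 10.2 on the other control mock arrays, and it was 9.29 on control imiquimod array 5 and 5.32 to 5.92 on the others of that group. Knockout mock array 3 (5.89) and knockout imiquimod array 1 (9.06) were the farthest in their groups. The mean of 6 keratinocyte markers was 9.93 to 10.39 in control mock, 10.74 to 10.98 in control imiquimod, 10.18 to 10.42 in knockout mock and 10.85 to 11.05 in knockout imiquimod, so it was higher with imiquimod in both genotypes without overlap. Markers of skeletal muscle (7.85 to 9.78) and of fat (7.31 to 9.79) were also measured on all of them. Arrays of one group correlated at 0.953 to 0.988 over all 41345 probe sets, and no pair of arrays held identical values.

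In control skin, 1 of the 33 members was called with imiquimod. Trim25 rose, with a log2 difference of 0.75 (1.68-fold, SE 0.17, adjusted p = 0.00501). No member was called lower, while 6.47% of all genes were called higher and 4.37% lower. The median difference of the members was -0.06, against -0.00 over all genes, and 19 of the 33 estimates lay below 0, against 51.1% of all genes. At an unadjusted p under 0.05 there were 2 members higher and 2 lower, where 12.3% of all genes were higher and 11.6% lower. The 32 members that were not called had estimates from -0.52 for Usp18 to 0.33 for Irf7, with a smallest adjusted p of 0.183.

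Trim25 encodes the ubiquitin ligase that activates the RNA sensor RIG-I. In mock-treated controls, Trim25 was 5.96, 6.31, 6.61, 6.02 and 6.58 on arrays 1 to 5, in the order used for all values below. Under imiquimod, Trim25 was 7.23, 7.33, 6.89, 7.23 and 6.53. Only imiquimod array 5, the one rich in hair genes, fell within the mock range. With the hair gene mean as a covariate the difference was 0.41 (adjusted p = 0.0648), so the call was lost. Without the array of each group that stood farthest in hair genes it was called, together with Irf7 (0.60, adjusted p = 0.00592) and Oas3 (0.40, adjusted p = 0.0177), which makes 3 members higher, where 8.16% of all genes were. Without control mock array 5 alone, Oas3 was called beside Trim25 (0.39, adjusted p = 0.0131), and 6.56% of all genes were called higher. The part of hair content in these results was not tested.

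In knockout skin, 7 of the 33 members fell with imiquimod and 0 rose by limma's test. This was 21.2% of the members, where 9.71% of all genes were called lower and 11.1% higher. The members that fell were the ubiquitin-like protease gene Usp18, the nucleotide kinase gene Cmpk2, the apoptosis regulator gene Xaf1, the oligoadenylate synthetase-like gene Oasl2, the ADP-ribosyltransferase gene Parp14, and the RNA sensor genes Ifih1 and Ddx58. The median difference of the members was -0.33, against -0.00 over all genes, and 29 of the 33 estimates were below 0, against 50.4% of all genes. At an unadjusted p under 0.05 there were 13 members lower and 1 higher, where 15.5% of all genes were lower and 15.7% higher. In 5 members every imiquimod array lay below every mock array, as in 6.53% of all genes.

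**Figure D1:**
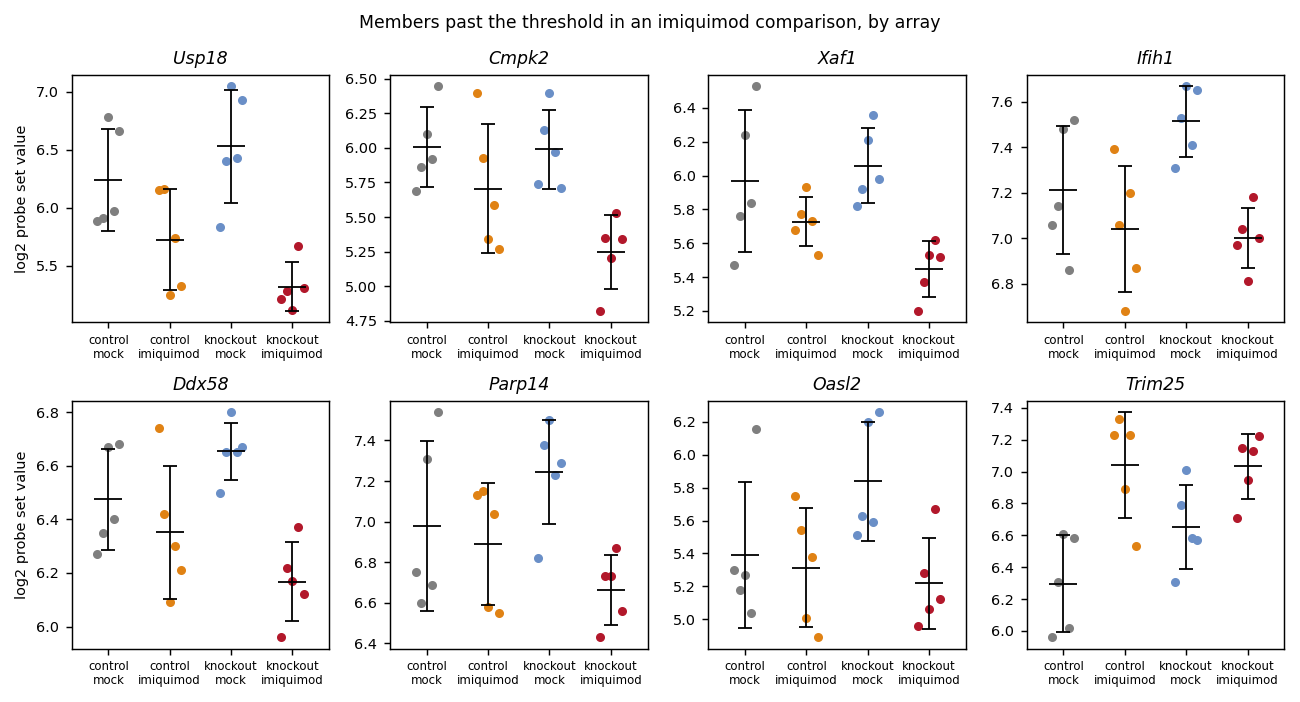
Deposited log2 values (vertical axis) of the called members on each of the 20 arrays, with the 4 groups along the horizontal axis, 5 arrays each; each point is 1 array, the long line is the group mean, the whiskers are 1 SD, and each panel has its own vertical scale. Usp18, Cmpk2, Xaf1, Ifih1 and Ddx58 have no overlap between knockout mock and knockout imiquimod arrays, and Trim25 is the member that lies higher in imiquimod-treated controls.

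Ifih1 (MDA5) and Ddx58 (RIG-I) encode helicases that detect foreign RNA in the cytoplasm and start interferon production. In knockout skin, Ifih1 was 7.31, 7.53, 7.67, 7.41 and 7.65 on the mock arrays and 6.97, 7.04, 6.81, 7.18 and 7.0 on the imiquimod arrays. Every imiquimod array lay below every mock array, a difference of -0.51 (1.43-fold lower, SE 0.14, adjusted p = 0.00925). Ddx58 was 6.5, 6.65, 6.8, 6.65 and 6.67 in mock and 5.96, 6.22, 6.17, 6.37 and 6.12 under imiquimod. Its groups did not overlap either, and the difference was -0.49 (1.40-fold lower, SE 0.11, adjusted p = 0.00401). The other 2 sensors, Zbp1 (-0.39) and Dhx58 (-0.12), did not pass the test. In controls the differences were -0.17 for Ifih1 (95% interval -0.45 to 0.11) and -0.12 for Ddx58 (-0.36 to 0.11), and the control groups overlapped.

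Usp18 removes ISG15 from proteins and binds Ifnar2, which dampens receptor signalling. Its levels in controls were 5.88, 5.91, 6.78, 5.97 and 6.66 in mock and 6.15, 6.16, 5.25, 5.74 and 5.32 under imiquimod. In knockouts Usp18 was 5.83, 6.40, 7.05, 6.43 and 6.93 in mock and 5.21, 5.28, 5.12, 5.67 and 5.31 under imiquimod. The control groups overlapped, whereas in knockouts the highest imiquimod array stayed below the lowest mock array. The difference in knockouts was -1.21 (2.31-fold lower, SE 0.24, adjusted p = 0.000921), and in controls it was -0.52 (95% interval -1.01 to -0.02, adjusted p = 0.183). The difference between these responses was -0.69 (95% interval -1.39 to 0.00, adjusted p = 0.736) and was not called.

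Xaf1 and Parp14 are the other regulators that fell. Xaf1, an antagonist of the apoptosis inhibitor XIAP, was 5.82, 5.92, 6.21, 6.36 and 5.98 in mock-treated knockouts and 5.20, 5.37, 5.53, 5.62 and 5.52 in imiquimod-treated ones. These groups were apart, by -0.61 (1.53-fold lower, SE 0.16, adjusted p = 0.00748). Parp14 was 6.82, 7.38, 7.50, 7.23 and 7.29 in mock and 6.43, 6.73, 6.73, 6.87 and 6.56 under imiquimod. Imiquimod array 4 exceeded mock array 1, so these groups overlapped, and the difference was -0.58 (1.49-fold lower, SE 0.18, adjusted p = 0.0233). The Parp14 call was lost without knockout mock array 2 (adjusted p = 0.0566) or 3 (0.0589) and without knockout imiquimod array 1 (0.0587) or 5 (0.0505). Trim25 had a positive estimate in knockouts as well (0.38, adjusted p = 0.117) and Ifi35, read by 2 probe sets, a small negative one (-0.16).

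Among the effectors, Cmpk2 and Oasl2 fell. Cmpk2, a mitochondrial kinase of pyrimidine nucleotides, was 5.74, 6.13, 6.40, 5.97 and 5.71 in mock-treated knockouts and 4.82, 5.35, 5.20, 5.53 and 5.34 after imiquimod. No imiquimod array reached the mock range, and the difference was -0.74 (1.67-fold lower, SE 0.20, adjusted p = 0.00989). Oasl2, a relative of the synthetases that make the RNase L activator, was 5.51, 5.63, 6.20, 5.59 and 6.26 in mock and 4.96, 5.28, 5.06, 5.67 and 5.12 after imiquimod. Array 4 of the imiquimod group lay within the mock range, and the difference was -0.62 (1.54-fold lower, SE 0.21, adjusted p = 0.0425). Of the 7 calls, this one was lost most often when single arrays were left out. It was lost without knockout mock array 3 (adjusted p = 0.106) or 5 (0.116), without knockout imiquimod array 1 (0.0963), 2 (0.0681), 3 (0.0882) or 5 (0.0816), and without control imiquimod array 4 (0.0508), which enters through the shared estimate of spread.

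The remaining effectors and chemokines were not called in knockouts. Isg15 (a ubiquitin-like modifier), Ifit1, Ifit2 and Ifit3 (which bind viral RNA), Mx1 and Mx2 (antiviral GTPases), Bst2 (which tethers virus particles) and Rsad2 (viperin) had differences of -0.41 to -0.19. Oas2 had -0.37 and the chemokine gene Cxcl10 -0.33. Isg20 (-0.16), Oasl1 (-0.10) and Eif2ak2 (-0.08) lay nearer to 0, and Oas3 had a positive estimate (0.25). The largest fitted decrease among the uncalled members was that of Cxcl9, a chemokine that attracts T cells, at -0.76 (95% interval -1.39 to -0.13, adjusted p = 0.0857). Rtp4, a receptor transport protein, followed at -0.61. The transcription factors Stat2, Irf9, Irf7 and Irf1 had differences of -0.46 to -0.25, and Stat2 came closest to the threshold (adjusted p = 0.0658). Mx1 and Mx2 lay among the dimmest 30% of genes.

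**Figure D2:**
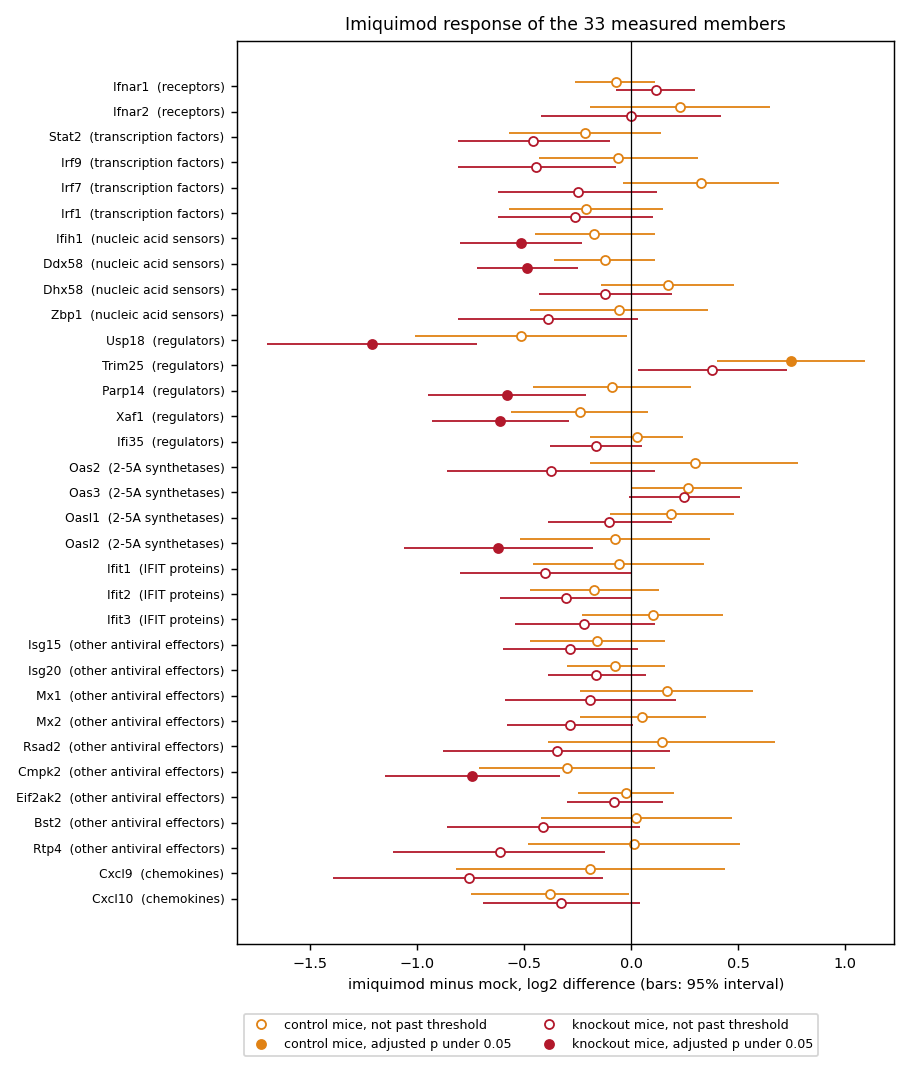
Imiquimod minus mock, on the log2 scale, for the 33 measured members in control skin and in knockout skin; points are limma estimates and bars their 95% intervals, with members grouped by role and called members marked. Most knockout estimates lie below 0, with 7 called, and the control estimates lie on both sides of 0, with Trim25 alone called.

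The receptor genes did not pass the test in any comparison. Ifnar1 was 7.73, 7.76, 8.03, 7.66 and 7.84 in control mock, 7.68, 7.75, 7.79, 7.80 and 7.64 in control imiquimod, 7.84, 7.96, 7.90, 7.72 and 7.78 in knockout mock, and 7.95, 8.08, 7.75, 8.2 and 7.80 in knockout imiquimod. All 4 groups of Ifnar1 overlapped. Ifnar2 was 6.51, 6.53, 7.35, 6.63 and 7.34 in control mock, 7.41, 7.38, 7.08, 6.88 and 6.74 in control imiquimod, 6.84, 7.39, 7.87, 7.05 and 7.15 in knockout mock, and 7.06, 7.32, 7.39, 7.51 and 7.02 in knockout imiquimod. Its groups overlapped too, with a response of 0.23 in controls (95% interval -0.19 to 0.65) and 0.00 in knockouts (-0.42 to 0.42). The control estimate of Ifnar2 turned to -0.16 with hair genes as a covariate.

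No member differed between genotypes in either treatment by limma's adjusted p. In mock-treated skin 0 of 33 were called, where 0.00902% of all genes were called higher and 0% lower, and 4 members were higher and 0 lower at an unadjusted p under 0.05, as were 1.8% and 1.39% of all genes. There 30 of the 33 estimates lay above 0 and the median was 0.14, against 0.01 over all genes. Only 3 member estimates were below 0, compared with 47.4% of all genes. The members with the smallest p were Ifih1, at 0.30 (95% interval 0.02 to 0.58), and Eif2ak2, at 0.24 (0.01 to 0.46), both with adjusted p = 0.999. Eif2ak2, the kinase PKR that stops translation on binding double-stranded RNA, was 6.18, 6.16, 6.52, 5.99 and 6.34 in control mock and 6.37, 6.54, 6.63, 6.30 and 6.54 in knockout mock. These groups overlapped, as did those of Ifih1, which was 7.06, 7.14, 7.48, 6.86 and 7.52 in control mock.

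Under imiquimod the estimates leaned the other way. Again 0 of 33 members were called, with 0.374% of all genes called higher and 0.171% lower, and 1 member was higher and 3 lower at an unadjusted p under 0.05, as were 5.18% and 4.82% of all genes. Of the estimates, 28 lay below 0, with a median of -0.12 against 0.01 over all genes, of which 47.9% were below 0. The smallest p belonged to Ifnar1 (0.22, 95% interval 0.04 to 0.41, adjusted p = 0.361) and Cmpk2 (-0.46, 95% interval -0.87 to -0.05, adjusted p = 0.419). Cmpk2 was 6.40, 5.93, 5.34, 5.59 and 5.27 in imiquimod-treated controls, and arrays 3 and 5 of them lay within the knockout range given above.

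The difference between the genotypes' responses was not called for any member. By limma's adjusted p, 0 of 33 passed, against 0.018% of all genes higher and 0% lower, and at an unadjusted p under 0.05 the counts were 0 higher and 2 lower, with 2.95% and 3.8% of all genes. Of these estimates 31 lay below 0, with a median of -0.34 against 0.00 over all genes, of which 49% were below 0. The smallest p belonged to Irf7, the factor that amplifies interferon-alpha transcription (-0.58, 95% interval -1.09 to -0.06, adjusted p = 0.721), and to Ddx58 (-0.36, 95% interval -0.70 to -0.03, adjusted p = 0.723). Irf7 was 6.07, 5.95, 5.89, 5.85 and 6.71 in control mock and 6.73, 6.81, 6.09, 6.52 and 5.95 in control imiquimod. In knockouts Irf7 was 5.93, 6.27, 6.64, 6.17 and 6.49 in mock and 6.08, 6.01, 6.0, 6.19 and 5.97 after imiquimod. All these groups of Irf7 overlapped. The mock-treated knockout arrays enter this comparison, the genotype comparison in mock and the response in knockouts alike, so these counts are not separate observations.

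The members moved together from array to array, so their counts do not add up as 33 independent genes. Control mock array 5 was the highest of its group for 24 of the 33 members (72.7%, against 30.5% of all genes, ties counted). Knockout mock array 3 was the highest of its group for 19 (57.6%, against 28.5%). Both were the arrays of their groups with the least hair gene signal. Knockout mock array 1, with a hair mean of 9.83, was the lowest of its group for 21 members (63.6%, against 21.1%). Knockout mock array 5 had the most hair gene signal of that group (10.14) and a member mean of 6.19, next below that of array 3. The part of hair content in these array patterns was not tested. Control imiquimod array 5 was the lowest of its group for 19 members (57.6%, against 25.5% of all genes) and knockout imiquimod array 1 for 17 (51.5%, against 24.1%), and these 2 arrays had the most hair gene signal of their groups. Knockout imiquimod array 4 was the highest for 24 members (72.7%, against 25.2%), with the next hair mean of its group (7.36). Control imiquimod array 1 was the highest for 19 members (57.6%, against 16% of all genes), with a hair mean of 5.91.

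**Figure D3:**
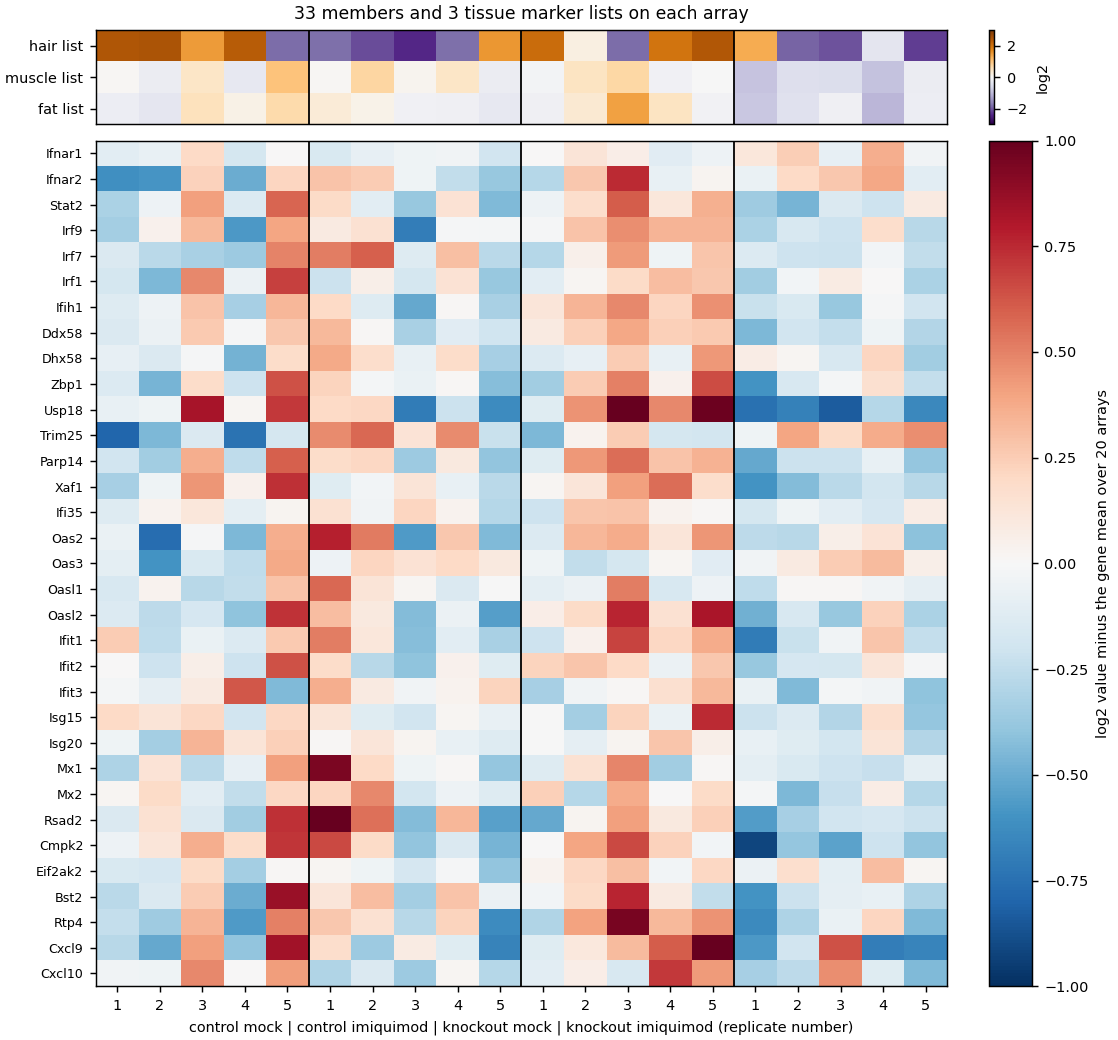
Each measured member (rows, by role) on each of the 20 arrays (columns, by group), as the log2 value minus the member's mean over all arrays, with the hair, muscle and fat marker means in the strips above on their own colour scale. Columns rather than single cells stand out: control mock 5 and knockout mock 3 are high for most members, and the knockout imiquimod arrays are mostly low.

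The mean of the 33 members lay between 5.67 and 6.28 in control mock, 5.60 and 6.15 in control imiquimod, 5.79 and 6.30 in knockout mock, and 5.57 and 5.92 in knockout imiquimod. With the hair gene mean as a covariate, 18 members were called lower in knockouts, all 7 named above among them, and 12.1% of all genes. In controls the same fit called 4 members lower (Stat2, Usp18, Xaf1 and Cmpk2) and 3.81% of all genes. Without the array of each group farthest in hair genes, the knockout calls were Ifih1, Ddx58, Usp18, Xaf1 and Cmpk2, and Trim25 was called higher, where 9.85% of all genes were called lower and 11.4% higher. The adjusted p of Parp14 was then 0.0542 and that of Oasl2 0.0728.

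Muscle and fat markers were lower with imiquimod in knockout skin, as most members were. Within groups they did not follow the members on every array. Knockout mock array 3, the highest of its group for 19 members, had the highest muscle and fat means there (9.47 and 9.79). Knockout imiquimod array 4, the highest for 24 members, had the lowest of its group (7.85 and 7.31). The mean of 18 muscle genes was 8.63 to 9.47 on knockout mock arrays and 7.85 to 8.54 on knockout imiquimod arrays, without overlap, and 12 of the 18 were called lower and 1 higher (median -0.82). For 11 fat genes the ranges were 8.21 to 9.79 and 7.31 to 8.2, also without overlap, and 7 were called lower (median -0.99). In controls the muscle means were 8.46 to 9.78 in mock and 8.54 to 9.49 under imiquimod, and the fat means 8.03 to 9.03 and 8.06 to 8.66. Of 12 fibroblast genes, 6 were called lower with imiquimod in controls (median -0.53) and 4 in knockouts (median -0.35). Beside the counts of these lists, 4.37% of all genes were called lower and 6.47% higher in controls. In knockouts 9.71% of all genes were called lower and 11.1% higher. The 30 hair genes had medians of -2.94 in controls and -2.17 in knockouts, with 0 called by limma in either. At an unadjusted p under 0.05, 29 and 11 of them were lower, as were 11.6% and 15.5% of all genes. The mean of the keratinocyte markers moved the opposite way, as given above, with 3 of 6 called higher in each genotype. Not all 6 rose. In controls 5 estimates lay above 0 and 1 below (-0.17 to 2.63, median 0.47). In knockouts 4 lay above 0 and 2 below (-0.16 to 1.93, median 0.595). The part of these lists in the members' values was not tested. With the muscle mean as a covariate, chosen after seeing the data, 2 members were called lower in knockouts (Usp18 and Ifit3) and 2 higher (Trim25 and Oas3), where 8.78% of all genes were called lower and 9.93% higher, and the median was -0.07. With the fat mean as a covariate, 0 were called lower by limma and 1 higher (Trim25), 8.46% of all genes were called lower and 8.53% higher, and the median was -0.08. Because the muscle and fat means separate the knockout groups without overlap, their part in the fall of the members and that of treatment cannot be told apart. The keratinocyte mean and the mean of 27 leukocyte genes, given below, also separated these groups without overlap. Neither was used as a covariate.

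**Figure D4:**
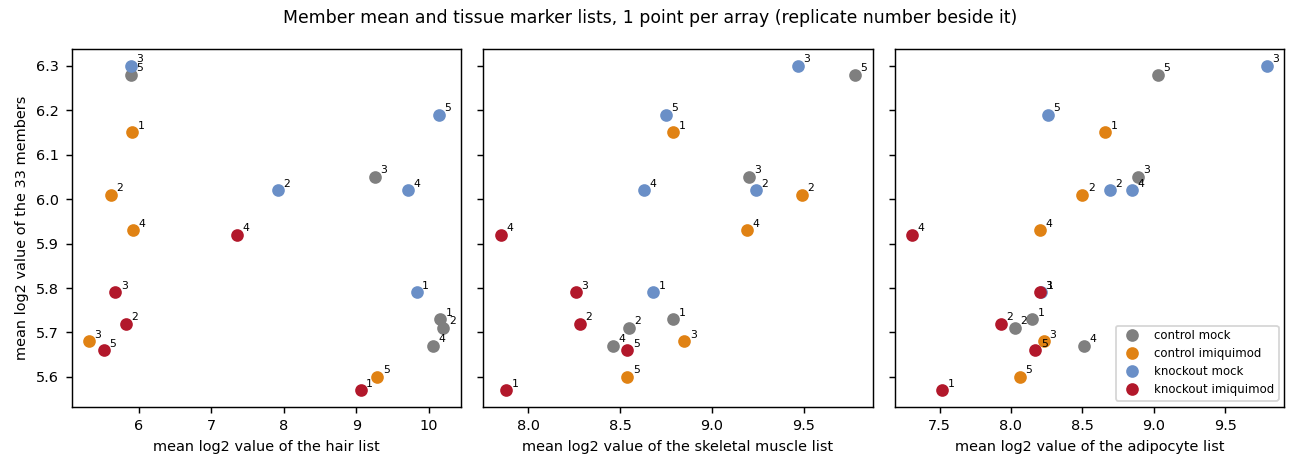
Mean of the 33 members on each array (vertical axis, log2) against the mean of hair, skeletal muscle and adipocyte marker genes on the same array (horizontal axes, log2); each point is 1 of the 20 arrays, coloured by group. The knockout imiquimod arrays lie at the low end of the muscle and fat axes, and the arrays with the unusual hair gene level of their group are among its highest or lowest in the members.

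Immune cell markers were set beside the members. Of 11 genes of plasmacytoid dendritic cells, 2 were called higher with imiquimod in controls, and 3 higher and 1 lower in knockouts, with medians of 0.02 and -0.05. Their defining lectin gene Siglech averaged 4.90 in control mock, 4.79 in control imiquimod, 5.01 in knockout mock and 4.87 in knockout imiquimod. The list shares Bst2 with the members, and its brightest gene, Ly6d, averaged 10.53. Of all genes, 6.47% were called higher in controls, and 11.1% higher and 9.71% lower in knockouts. Whether the calls of this list reflect the number of these cells was not tested. The list mean of 27 leukocyte genes was 5.05 to 5.64 in control mock and 5.28 to 5.82 in control imiquimod. It was 5.16 to 5.57 in knockout mock and 5.69 to 6.04 in knockout imiquimod. In controls 6 of the 27 genes were called higher and 0 lower by limma, with a median of 0.10. In knockouts 6 were called higher and 3 lower. There 14 estimates lay above 0 and 13 below, from -1.36 to 5.62, with a median of 0.02, so the list did not rise as a whole. Monocyte and macrophage genes averaged 6.56 to 7.55 in control mock and 6.91 to 7.59 in control imiquimod. They averaged 6.79 to 7.53 in knockout mock and 7.12 to 7.56 in knockout imiquimod. Of these 15 genes, 3 were called higher and 1 lower in each genotype, with medians of 0.39 in controls and 0.10 in knockouts. Of all genes, 4.37% were called lower in controls.

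The interferon genes themselves were measured for 19 of 21 ligands. In controls 1 was called higher, Ifna15 (0.30, adjusted p = 0.0281), and in knockouts 2 were, Ifna9 (0.52, adjusted p = 0.00983) and Ifna15 (0.28, adjusted p = 0.0252). None was called lower, and over all genes 6.47% were called higher in controls and 11.1% in knockouts. Ifna9 was dim, with group means of 3.36 to 3.95, and 10 of the 19 ligands lay among the dimmest 30% of genes. The interferon-alpha genes are near-identical copies, so the identity of a single one is uncertain here. Ifnb1, the early interferon gene, stayed dim at 2.66 to 3.12 on all 20 arrays.

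Genes that induce interferon or relay its signal were followed as a separate list. Of 25 measured genes of 31 listed, 6 rose and 1 fell with imiquimod in controls, and 8 rose and 1 fell in knockouts, with medians of 0.23 and 0.14. Over all genes, 6.47% were called higher and 4.37% lower in controls, and 11.1% higher and 9.71% lower in knockouts. Myd88, the adaptor of Toll-like receptor 7, rose by 0.72 in controls (adjusted p = 0.00101) and by 0.996 in knockouts (adjusted p = 1.93e-05). Traf6, a ubiquitin ligase downstream of it, rose by 0.77 and 0.71 (adjusted p = 0.000178 and 0.000259). Ikbke, a kinase that phosphorylates interferon regulatory factors, rose by 0.54 in controls and 0.69 in knockouts (adjusted p = 0.0104 and 0.000759). Socs3, a feedback inhibitor of cytokine receptors, rose by 0.98 in knockouts (adjusted p = 0.00037), with 0.40 in controls (adjusted p = 0.162). The genes that fell were the interferon-lambda receptor gene Ifnlr1 in controls (-0.30, adjusted p = 0.0369, with -0.19 and 0.152 in knockouts) and Tlr3, a receptor for double-stranded RNA, in knockouts (-0.43, adjusted p = 0.00378, with -0.22 and 0.178 in controls).

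A wider list of 85 other interferon-stimulated genes, 75 of them measured, gave mixed directions. In controls 4 rose and 0 fell by limma, with 2 lower at an unadjusted p under 0.05, where 11.6% of all genes were lower. In knockouts 7 rose and 15 fell, and the medians were 0.00 in controls and -0.23 in knockouts. The shares of all genes called were 6.47% higher and 4.37% lower in controls, and 11.1% higher and 9.71% lower in knockouts. The genes that rose most were Slfn2, a Schlafen family gene (1.12 in controls and 1.26 in knockouts, adjusted p = 0.00344 and 0.000682), Slfn4 (1.45 in knockouts, adjusted p = 0.0054, and 0.27 in controls, adjusted p = 0.738), and Cd274, which encodes the checkpoint ligand PD-L1 (0.94 and 1.43, adjusted p = 0.00402 and 3.84e-05). Samhd1, a nucleotide hydrolase, rose by 0.53 in controls (adjusted p = 0.0404), with 0.29 in knockouts (adjusted p = 0.237). The falls in knockouts were led by Gbp11, a guanylate-binding protein gene (-1.41, adjusted p = 0.00117), Ifitm6 (-1.30, adjusted p = 0.0356) and the helicase gene Ddx60 (-0.96, adjusted p = 0.00154). Group means of Gbp11 were 3.38 to 4.79, near the level of 4.39 below which the dimmest 30% of genes lay.

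Between genotypes, Mlkl, the executioner of necroptosis, was the only called gene among the 75 of the wider list. It was higher in knockouts under imiquimod (0.74, adjusted p = 0.0117), where 0.374% of all genes were called higher and 0.171% lower. In that comparison 27 estimates of the list lay above 0 and 48 below, with a median of -0.05. Gbp11 had the smallest p for the difference of responses (-1.68, adjusted p = 0.316) and Socs3 that among the signalling genes under imiquimod (0.66, adjusted p = 0.103), and neither passed.

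**Figure D5:**
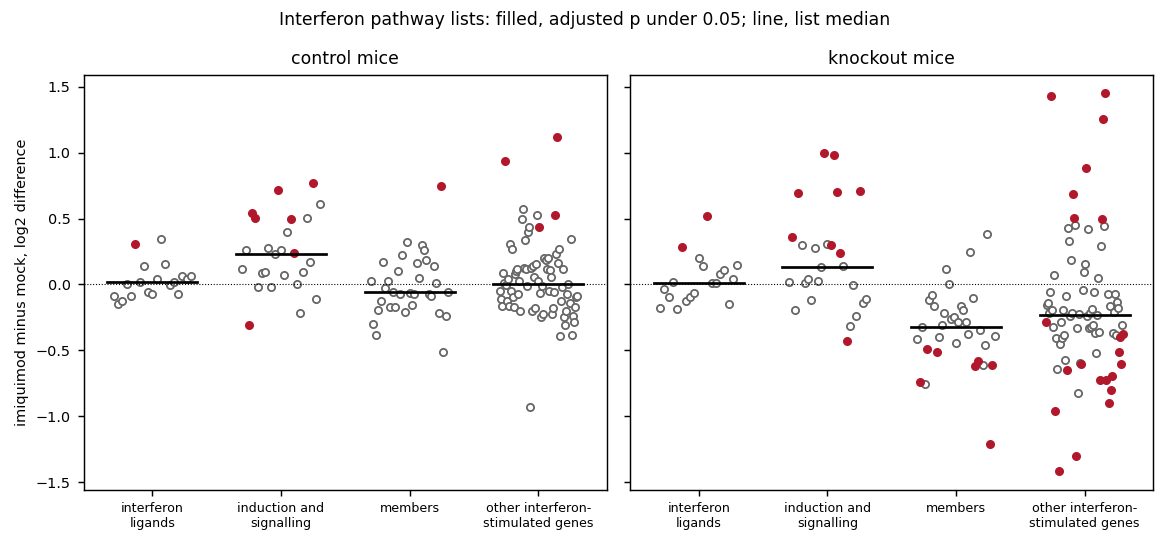
Imiquimod minus mock (log2) for interferon ligands, induction and signalling genes, the members and other interferon-stimulated genes, in control and in knockout skin; each point is 1 gene, the bar is the list median, and called genes are filled. The signalling genes lie mostly above 0 in both genotypes, and the members and the other stimulated genes lie lower in knockouts, with medians of -0.33 and -0.23.

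Several members are neighbours in the genome (coordinates from RefSeq, GRCm38.p6). Rsad2 (chr12:26442743-26456452) lies beside Cmpk2 (chr12:26469117-26479837), and in knockouts Rsad2 had a difference of -0.35 (95% interval -0.88 to 0.18) and Cmpk2 of -0.74 (-1.15 to -0.33). These intervals overlap, and the difference between the genes was not tested. Oasl2 (chr5:114896926-114912245) lies beside Oasl1 (chr5:114923143-114937911), which had -0.10. Ifih1 lies on chromosome 2 (62595618 to 62646255), Ddx58 on chromosome 4 (40203777 to 40239825), Usp18 on chromosome 6 (121245906 to 121270917) and Xaf1 on chromosome 11 (72301461 to 72313733).

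The promoters were searched on both strands, in the 250 bases before each start, for a core of the ISRE, the element that Irf9 recognises. RefSeq promoters were at hand for 27 of the 35 members, and 9 of them held a match (33.3%), against 3.46% of 27025 genes. Of the 7 genes that fell in knockouts, 5 had a promoter in the table and 0 held an ISRE match. Of the 20 other measured members in the table, 8 held one. A match is a description of the sequence, and no match means only that the searched core is not in this window. The 4 promoters below show textbook response genes with a match, which were not called here, and Ddx58, which fell and has none. ISRE matches are in capitals, and the sequences are from RefSeq, read 5′ to 3′ on the gene's strand.
Isg15, minus strand of chr4:156200819-156201068, with overlapping matches that begin 78, 72 and 66 bases before the start
Isg15: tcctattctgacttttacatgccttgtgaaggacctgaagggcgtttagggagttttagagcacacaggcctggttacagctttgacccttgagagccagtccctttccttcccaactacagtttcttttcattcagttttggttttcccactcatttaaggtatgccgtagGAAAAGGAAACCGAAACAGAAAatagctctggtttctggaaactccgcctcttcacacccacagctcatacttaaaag
Ifit1, plus strand of chr19:34640639-34640888, with matches that begin 104 and 85 bases before the start
Ifit1: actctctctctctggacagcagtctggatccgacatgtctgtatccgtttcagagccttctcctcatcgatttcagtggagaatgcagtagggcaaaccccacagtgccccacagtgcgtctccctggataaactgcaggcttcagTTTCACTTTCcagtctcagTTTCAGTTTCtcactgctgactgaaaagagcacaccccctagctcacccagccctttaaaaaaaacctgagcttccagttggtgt
Rsad2, minus strand of chr12:26456453-26456702, with a match that begins 120 bases before the start
Rsad2: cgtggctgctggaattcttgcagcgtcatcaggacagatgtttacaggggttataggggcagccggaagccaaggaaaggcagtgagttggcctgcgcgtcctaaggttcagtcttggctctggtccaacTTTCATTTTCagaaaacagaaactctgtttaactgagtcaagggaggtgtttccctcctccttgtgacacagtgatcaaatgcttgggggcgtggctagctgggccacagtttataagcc
Ddx58, minus strand of chr4:40239826-40240075, with no match
Ddx58: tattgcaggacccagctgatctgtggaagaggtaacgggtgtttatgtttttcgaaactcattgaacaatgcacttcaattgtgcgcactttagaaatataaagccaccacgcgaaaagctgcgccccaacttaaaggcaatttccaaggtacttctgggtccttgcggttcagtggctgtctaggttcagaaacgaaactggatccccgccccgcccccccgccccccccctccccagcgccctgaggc
Isg15 had a difference of -0.16 in controls and -0.28 in knockouts, Ifit1 of -0.06 and -0.40, and Rsad2 of 0.14 and -0.35. None of these passed the test. Ddx58 had -0.12 in controls and the called -0.49 in knockouts.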

How the data were processed

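RNA of abdominal skin from 20 mice (5 in each of 4 groups) was labelled from 200 ng for Affymetrix arrays, per the labels' protocols. The deposited values are log2 levels of 41345 probe sets; the log base was inferred from their range (1.41 to 13.33), and the nearly equal array medians (4.94 to 5.04) show that the authors normalized between arrays, by a method not given in the sources used here. Of the probe sets, 23521 had 1 gene symbol in the platform annotation, 1814 had several and 16010 had no entry. The 22180 genes with 1 symbol were tested, each by its brightest probe set. The number of arrays limits the precision (median SE of a difference 0.11, for members 0.17). Detection above background was not used here.

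Differences were tested with limma 3.58.1 in R 4.3.3 (lmFit and eBayes, 1 mean per group, all 20 arrays in 1 fit, two-sided), with Benjamini-Hochberg adjustment over all genes. The procedure was tested on simulated data for the response in knockouts. It recovered 64.2% of log2 changes of 0.5 and 94% of changes of 1, so a change of 0.5 can go uncalled. The simulated noise was independent between genes, unlike that of the members, which moved together. Members with a call in any comparison, the 2 with the smallest p where none was called, and both receptors are given array by array. From each pathway list, up to 3 rises and 3 falls past the threshold are named, or the gene with the smallest p. The members and lists were chosen with earlier results of these data known. Titles number the arrays but nothing in the labels ties equal numbers together. Promoter sequences and coordinates come from RefSeq tables of GRCm38.p6. Alternatives were a fit on the compared groups, a replicate block, other priors, array weights, other normalizations, all probe sets of a gene, a filter on the dimmest 30% of genes, hair, muscle and fat gene covariates, and leaving out arrays.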

Additional observations from a re-analysis of the deposited data

Results flagged for a closer look

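In 6 of 132 tests of a member within a group of 5 arrays, the highest or lowest array stood apart from the others by Dixon's test, close to the 1 in 20 that chance gives. Control mock array 5 was high for Irf7 (6.71, next 6.07) and for Oasl2 (6.16, next 5.30), and it is the array with few hair transcripts. Knockout mock array 3, also low in hair genes, was high for Oasl1 (5.77, next 5.21). Control imiquimod array 3 was low for Irf9 (6.26, next 6.93), knockout mock array 4 for Ifit2 (4.70, next 4.96) and control mock array 4 for Isg15 (4.26, next 4.58).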

How the results depend on the processing

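The counts of members higher with imiquimod in controls (1), lower there (0), and higher (0) and lower (7) in knockouts were recomputed under 13 other settings and with each of the 20 arrays left out. Array weights gave 3 higher in controls, where 8.82% of all genes were, and 1 higher in knockouts, where 12.5% of all genes were. The hair covariate gave 0 higher and 4 lower in controls and 18 lower in knockouts. Dropping from every group the array most unusual in hair genes gave 3 higher in controls and 1 in knockouts. The muscle covariate gave 2 higher and 2 lower in knockouts, and the fat covariate 1 higher and 0 lower; both were chosen after seeing the data, and the cause was not tested. With single arrays left out, the counts were 1 to 2 higher in controls and 5 to 10 lower in knockouts. The 10 came without knockout mock array 1, where 8.99% of all genes were called lower. Over these fits 4.96% to 7.32% of all genes were called higher in controls and 7.63% to 10.6% lower in knockouts. The estimate of Ifnar2 changed sign in controls with the hair covariate (-0.16), and in the difference of responses with the muscle (0.23) and fat (0.18) covariates. By limma, 0 members were called between genotypes under these 13 settings or with single arrays left out, and 0 for the difference of responses under the 12 settings that apply to it. For Zfp36, leaving out 1 array gave differences of -2.45 to -1.54 in mock, with exact permutation p = 0.0556 without control mock array 3 (-1.96), a design of 4 against 5.

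With the replicate number as a block, 6 members were called lower in knockouts, all of them among the 7 (Oasl2 was lost, adjusted p = 0.0717), and 1 higher in controls. Of all genes, 8.91% were called lower in knockouts and 5.73% higher in controls by that fit. The deviations of same-numbered arrays correlated at -0.71 to 0.52 over 30 pairs, with 14 over 0.1. Of the 20 arrays, 4 correlated best with their own number. This gave no sign that the numbers pair the animals. It cannot exclude pairing, since other differences between arrays, such as hair content, also enter these correlations. Oasl2 was also lost after median centring (adjusted p = 0.0561) and quantile normalization (0.0594).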
